A study of Mus musculus with 25 samples.

Results

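The ERK feedback genes are 10 mouse genes that ERK signalling switches on and that report or restrain it in turn. They were taken from a fixed list of names, Dusp4, Dusp5, Dusp6, Spry1, Spry2, Spry4, Spred1, Etv1, Etv4 and Etv5, out of 56956 genes in the count table. The rule uses no measured value, but the list was drawn up with earlier results of these data known. All 10 passed the filter on low expression that left 13993 genes for the group comparisons. Their RNA was read in 25 libraries of sciatic nerve from mouse models of Charcot-Marie-Tooth disease type 1A (CMT1A), in which an extra dose of peripheral myelin protein 22 (PMP22) disturbs the myelinating Schwann cell. There were 5 groups, each with 5 libraries, 1 per age (weeks 3, 5, 7, 9 and 12), and each library was 1 pool of nerves from 4 to 5 animals of both sexes with no treatment.

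WT-C3 mice were C57BL/6J controls. C3 mice (B6.Cg-Tg(PMP22)C3Fbas/J) had the C57BL/6J background and 5 additional copies of human PMP22. C3-cJunKO mice had the C3 transgene and lacked c-Jun in Schwann cells, through a Cre recombinase specific to these cells. The labels give no background strain for them, and no group had the deletion without the transgene. WT-C22 mice were FVB/NRJ controls, and C22 mice (Tg(PMP22)C22Clh, FVB/NRJ) had 10 copies of human PMP22. The models therefore differ in copy number and in strain at once, and these cannot be told apart. The libraries of a group differ in age, so the spread within a group includes age, and each age of a group is a single pool.

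ERK is the last kinase of the RAS, RAF and MEK cascade, which carries signals from receptor tyrosine kinases such as the neuregulin receptor ERBB2/ERBB3 of Schwann cells. Active ERK induces genes for its own inhibitors, so that the RNAs of these inhibitors are widely used as a readout of pathway output. In nerve the pathway is known both for its need during developmental myelination and for the demyelination that follows its forced activation in mature Schwann cells. The files hold RNA levels alone, with no measure of ERK phosphorylation.

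Library totals ran from 2140142 counts (C3 at 9 weeks) to 49072746 (C3 at 7 weeks), with a median of 24663235. In the C3 library at 9 weeks the members had between 9 (Dusp5) and 152 (Spred1) counts, and the main results that rest on it are given with and without it below. The label checks held: Jun, which encodes c-Jun, lay between 27.5 and 33.1 CPM (counts scaled to a common library total) in C3-cJunKO libraries against 93.5 to 125 CPM in C3 libraries, and the human PMP22 transcript was at or below 5.87 CPM in all control libraries against at least 8210 CPM in the transgenic ones. Levels below are CPM scaled by the trimmed mean of M values (TMM), changes are log2 fold changes with their standard error (SE), and called means an adjusted p under 0.05 after Benjamini-Hochberg adjustment over all genes tested, by the quasi-likelihood test of edgeR. On the TMM scale human PMP22 had a mean of 12600 CPM (SD 1610, n = 5) in C3 nerve and 11800 CPM (SD 1510, n = 5) in C22 nerve. By mean, transgene RNA was thus no higher in C22 than in C3, although C22 has more copies. The nerve was sequenced whole, so that fewer cells of a type and less RNA per cell cannot be told apart.

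In WT-C3 nerve, RNA per length was highest for Dusp6 and Spred1 among the members and lowest for Dusp5. The mean was 12.8 ± 0.878 CPM per kilobase of exon for Dusp6 (SD, n = 5), 11.9 ± 0.287 for Spred1 and 0.828 ± 0.223 for Dusp5. In C22 nerve Dusp4 led with 15.4 ± 2.16 CPM per kilobase, above 13.7 ± 0.76 for Dusp6. Dusp5 counts were low throughout, between 9 and 165 per library. The plot of member levels by library shows all 250 values.

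**Figure D1:**
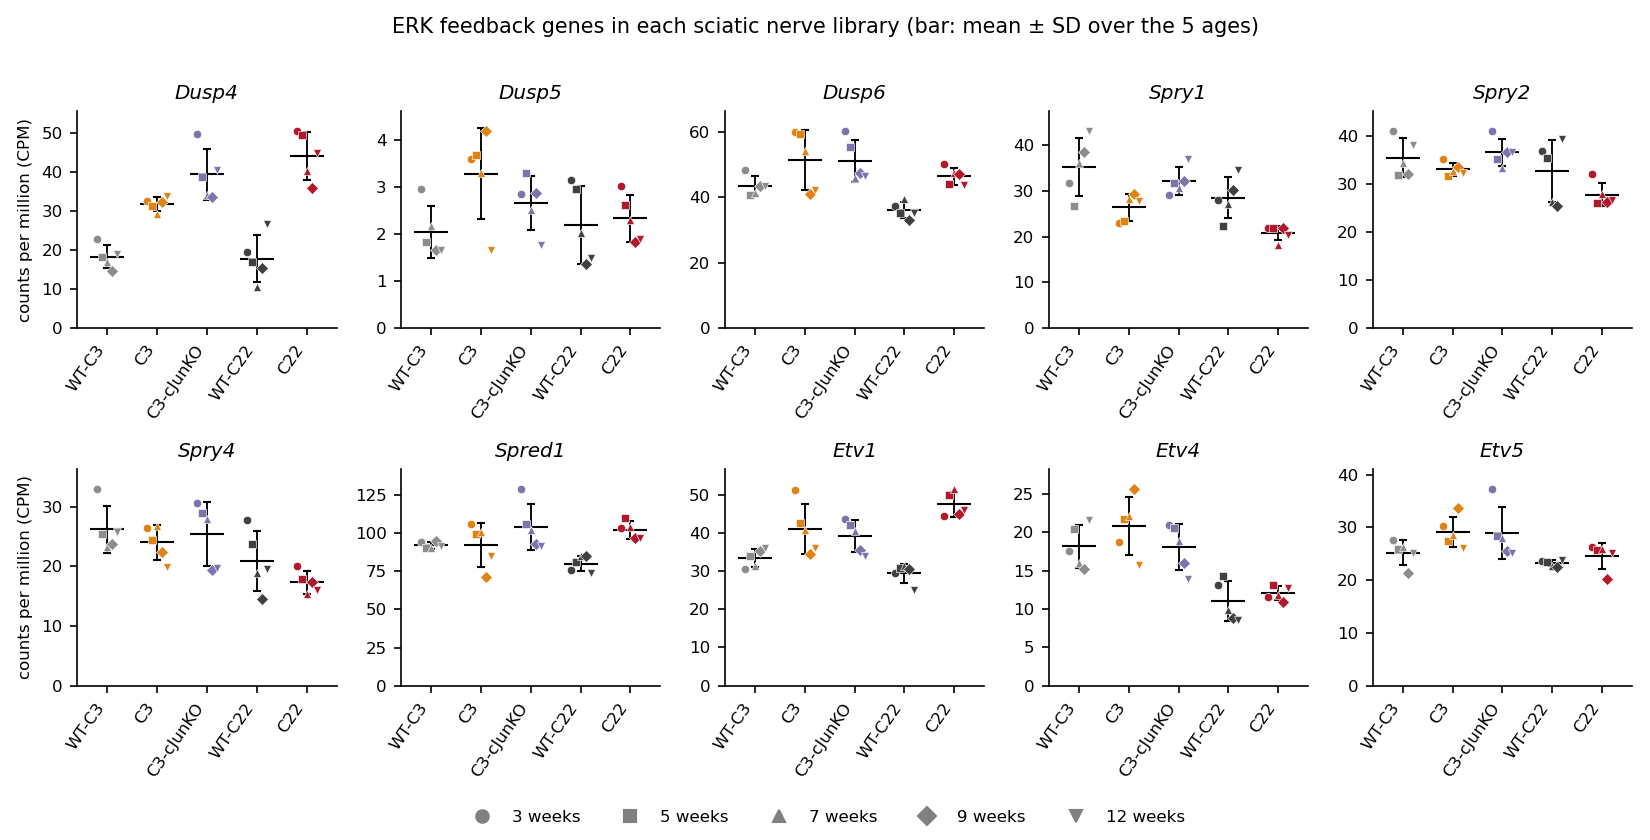
Level of each ERK feedback gene (vertical axis, TMM-scaled CPM from 0) in the 25 libraries by group (horizontal axis), with the marker shape giving age and the bar the mean ± SD over the 5 ages. The Dusp4 libraries of C3, C3-cJunKO and C22 lie at 29.2 CPM or above and those of both controls at 26.7 CPM or below, and the Spry1 libraries of C22 lie at 22 CPM or below.

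The first question was how the members differ between CMT1A model nerve and its strain control. In C22 nerve 4 members were higher than in WT-C22, namely Dusp4, Etv1, Dusp6 and Spred1, and 1 was lower, Spry1. Over all genes tested 21.9% were called higher and 20.5% lower, so a call by itself is common in this comparison. The median log2 change was 0.13 over the members and 0 over all genes, and the median size of the change regardless of direction was 0.31 and 0.27. In C3 nerve 1 member was called higher than in WT-C3, Dusp4, and 1 lower, Spry1, against 12.5% of all genes higher and 11.4% lower. There the median log2 change was 0.17 over the members and 0 over all genes. Without the C3 library at 9 weeks 4 members were called, Dusp4 (0.80) and Spry1 (-0.45) as before, and Dusp6 and Etv1 higher as well.

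The members that passed the test in either model did not move one way. Phosphatases, Spred1 and an ETS factor were higher, while the called Sprouty gene was lower.

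**Figure D2:**
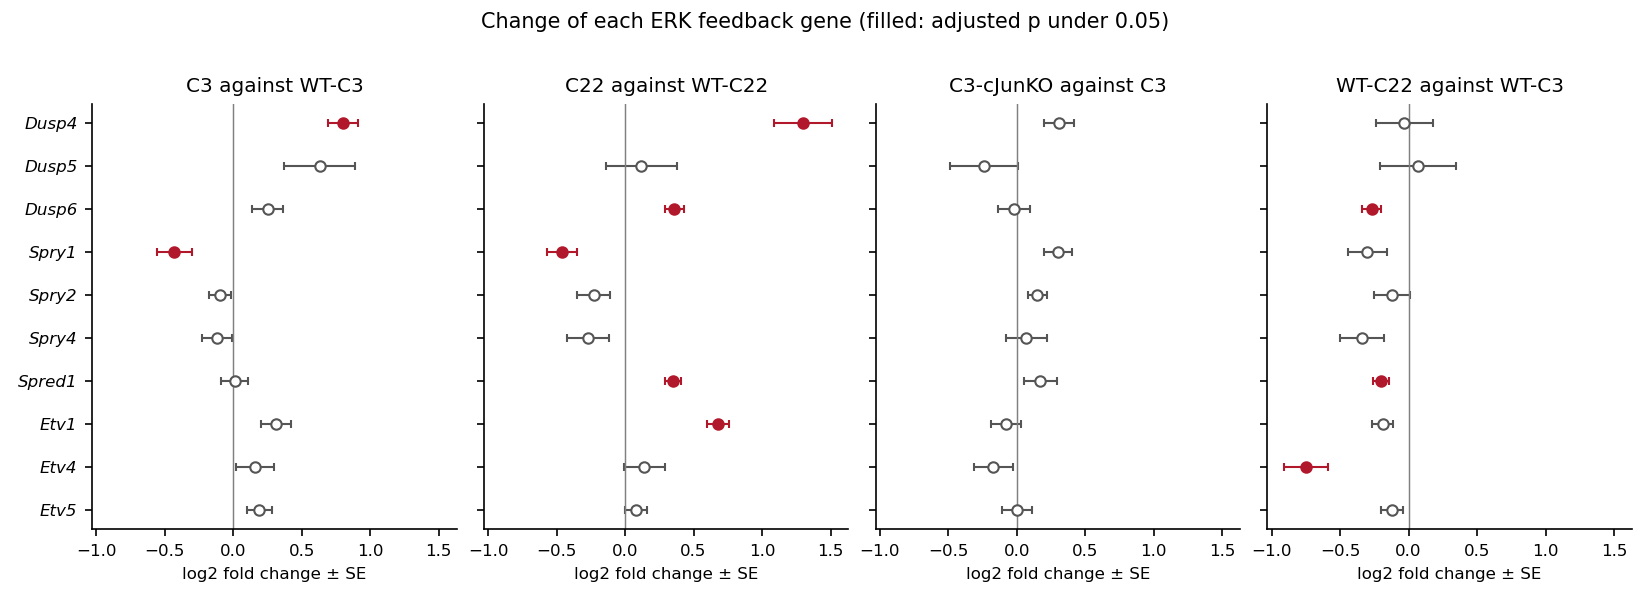
Log2 fold change (horizontal axis, point) with its SE (bar) of each ERK feedback gene in 4 comparisons, filled where the adjusted p is under 0.05. Dusp4 stands at 0.80 in C3 and 1.30 in C22, Spry1 at -0.43 and -0.46, and no point is filled for C3-cJunKO against C3.

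Dusp4 (chr8:35274442-35287048, plus strand, GRCm39) encodes a nuclear phosphatase that removes phosphate from ERK and from related MAP kinases. In WT-C22 nerve it measured 19.6, 17, 10.4, 15.3 and 26.7 CPM, here and below in order of age. In C22 nerve it measured 50.6, 49.5, 40.4, 35.8 and 44.8 CPM. Each C22 library was above each WT-C22 library, the smallest gap in age-matched pairs being at 12 weeks, where WT-C22 had its highest value. The log2 fold change was 1.30 (SE 0.21, adjusted p = 0.000422 by edgeR), a fold of 2.46. In WT-C3 nerve Dusp4 measured 22.7, 18.1, 16.9, 14.7 and 19 CPM. In C3 nerve it measured 32.5, 31.4, 29.2, 32.2 and 33.8 CPM. These groups did not overlap either, and the C3 libraries varied less than those of any other group (SD 1.73 CPM, n = 5). The log2 fold change in C3 was 0.80 (SE 0.11, adjusted p = 0.00052 by edgeR), a fold of 1.74. By group mean the order was C22 (44.2 CPM), C3-cJunKO (39.4), C3 (31.8), WT-C3 (18.3) and WT-C22 (17.8). The WT-C22 and WT-C3 levels did not differ beyond their spread (log2 difference -0.03, SE 0.21). C3-cJunKO was higher than C3 at 5 of 5 ages, with overlapping groups and a log2 difference of 0.31 (SE 0.11). That difference was not called after adjustment over all genes tested (adjusted p = 0.404 by edgeR).

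Dusp6 (chr10:99086564-99103361, plus strand) encodes the cytoplasmic phosphatase that is selective for ERK. In WT-C22 nerve it measured 37.5, 35.1, 39.4, 33.1 and 35.2 CPM, and in C22 nerve 50.1, 44.1, 47.5, 47.2 and 43.9 CPM. The groups did not overlap, and C22 was higher at 5 of 5 ages by 0.27 to 0.51 on the log2 scale. That gave a log2 fold change of 0.36 (SE 0.07, adjusted p = 0.00104 by edgeR). In WT-C3 nerve it measured 48.3, 40.8, 41.2, 43.6 and 43.5 CPM, and in C3 nerve 60, 59.3, 54.3, 41.1 and 42.3 CPM. The C3 libraries at 3, 5 and 7 weeks lay above all WT-C3 libraries, and those at 9 and 12 weeks lay among them. Over all ages the log2 fold change was 0.25 (SE 0.11, adjusted p = 0.12 by edgeR), and without the C3 library at 9 weeks it was 0.31 (adjusted p = 0.0395).

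Dusp5 encodes the nuclear phosphatase that is selective for ERK. It ranged from 1.37 to 3.15 CPM in WT-C22 nerve and from 1.84 to 3.03 CPM in C22 nerve, and was not called (log2 fold change 0.12, SE 0.26). In WT-C3 nerve it ranged from 1.65 to 2.97 CPM, and in C3 nerve it measured 3.59, 3.68, 3.31, 4.2 and 1.65 CPM. The first 4 of these were above every WT-C3 library and the library at 12 weeks equalled the lowest. Its log2 fold change was 0.63 (SE 0.26, adjusted p = 0.104 by edgeR), and without the C3 library at 12 weeks it was 0.82 (adjusted p = 0.0192). Without the C3 library at 9 weeks, which had 9 counts, it was 0.59 (SE 0.27, adjusted p = 0.129).

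The upstream sequences of Dusp6 and Dusp5 are shown because these genes are textbook targets of ERK-responsive factors. RefSeq (GRCm38.p6) gave promoter entries for 7 of the 10 members, the others being Dusp4, Etv4 and Spry4, and 250 bases before each of their 9 starts were searched on both strands. The letters searched were TGANTCA (AP-1, the dimers of c-Jun and Fos proteins), TGACGTCA (CRE), TGAATGAA and TGAATGGA (octamers bound by the repressor CIC, which ERK inactivates), their shared core TGAATG, CCGGAAGT (ETS) and the CArG box bound by serum response factor. The CIC core was in 3 of the 9 windows, against 10.9% of 32851 promoters, and the CArG box in 1, against 1.47%. The AP-1, CRE, octamer and ETS letters were in none of the 9 and in 6.75%, 1.55%, 1.08% and 1.01%, and 2.88% of all promoters. Capitals mark the CIC core and CArG boxes in the Dusp6 and Dusp5 windows, each 5′ to 3′ on the gene's strand. The Spry1 window is set beside them as an example that held none of the letters. The windows of Etv1 and Spred1, which were called higher in C22, held none either. The Dusp6, Dusp5 and Spry1 windows lie at chr10:99262981-99263230, chr19:53528895-53529144 and chr3:37639697-37639946, all on the plus strand.
Dusp6: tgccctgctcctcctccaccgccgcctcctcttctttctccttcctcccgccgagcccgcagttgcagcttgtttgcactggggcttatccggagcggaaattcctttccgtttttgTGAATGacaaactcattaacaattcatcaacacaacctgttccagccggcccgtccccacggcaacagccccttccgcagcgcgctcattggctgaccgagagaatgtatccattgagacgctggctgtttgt
Dusp5: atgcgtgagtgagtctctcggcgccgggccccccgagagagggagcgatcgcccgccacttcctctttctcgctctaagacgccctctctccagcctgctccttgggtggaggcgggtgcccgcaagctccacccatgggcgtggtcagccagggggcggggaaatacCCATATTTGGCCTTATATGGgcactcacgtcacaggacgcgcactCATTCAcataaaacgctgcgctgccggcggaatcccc
Spry1: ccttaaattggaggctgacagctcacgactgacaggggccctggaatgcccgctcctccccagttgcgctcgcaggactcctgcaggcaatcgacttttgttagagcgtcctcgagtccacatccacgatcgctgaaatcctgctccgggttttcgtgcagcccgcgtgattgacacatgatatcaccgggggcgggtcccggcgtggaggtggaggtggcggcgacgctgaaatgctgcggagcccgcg
In the Dusp6 window the CIC core ended 127 bases before the start. The Dusp5 window held 2 adjoining CArG boxes that ended 72 and 62 bases before the start and a CIC core at 31 bases. The matches are letters, not measured binding.

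Spry1 (chr3:37693897-37698755, plus strand) encodes a Sprouty protein, which blocks the passage of the signal from receptor tyrosine kinases to RAS and RAF. In WT-C22 nerve it measured 28, 22.4, 27.2, 30.3 and 34.7 CPM, and in C22 nerve 21.9, 21.8, 18.2, 22 and 20.4 CPM. Each C22 library lay below each WT-C22 library, with the 5-week pair 0.04 apart on the log2 scale and the 12-week pair 0.76 apart. Its log2 fold change in C22 was -0.46 (SE 0.11, adjusted p = 0.00438 by edgeR), a fold of 0.725. In WT-C3 nerve it measured 31.7, 26.7, 36.1, 38.6 and 43.2 CPM, and in C3 nerve 23, 23.5, 28.2, 29.4 and 27.9 CPM. C3 was lower at 5 of 5 ages, but the groups overlapped, since WT-C3 at 5 weeks lay below 3 C3 libraries. The log2 fold change was -0.43 (SE 0.13, adjusted p = 0.0292 by edgeR). That call was lost when any 1 of 5 libraries was left out, C3 at 3 or 5 weeks or WT-C3 at 7, 9 or 12 weeks, with adjusted p between 0.0582 and 0.0788.

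Spry2 and Spry4, the other Sprouty genes, were not called in either model. Spry2 measured 25.5 to 39.5 CPM in WT-C22 and 26.1 to 32.1 CPM in C22 (log2 fold change -0.23, SE 0.12, adjusted p = 0.153 by edgeR). Spry4 measured 14.5 to 27.7 CPM in WT-C22 and 15.3 to 20.1 CPM in C22 (log2 fold change -0.27, SE 0.15, adjusted p = 0.179), and without the WT-C22 library at 9 weeks Spry4 was called lower (-0.37, adjusted p = 0.0465). In C3 nerve the corresponding log2 fold changes were -0.10 (SE 0.08) for Spry2 and -0.12 (SE 0.11) for Spry4. All 3 Sprouty genes thus had negative estimates in both models under TMM scaling, and Spry1 was the one that passed the test.

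Spred1 (chr2:116951524-117018277, plus strand) encodes a Sprouty-related protein that brings neurofibromin to RAS. In WT-C22 nerve it measured 75.8, 80.8, 84.7, 84.8 and 74 CPM, and in C22 nerve 103, 110, 104, 96.9 and 96.6 CPM. The groups did not overlap, and the log2 fold change was 0.35 (SE 0.06, adjusted p = 0.0013 by edgeR). In C3 nerve Spred1 measured 106, 99.1, 101, 70.9 and 84.7 CPM against 90 to 94.6 CPM in WT-C3. The C3 values fell on both sides of the narrow control range, and the log2 fold change was 0.01 (SE 0.10, adjusted p = 0.94).

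The PEA3 group of ETS transcription factors, Etv1, Etv4 and Etv5, is a transcriptional output of ERK rather than an inhibitor. Etv1 (chr12:38828851-38920483, plus strand) measured 29.5, 30.9, 31.4, 30.4 and 25.1 CPM in WT-C22 nerve and 44.5, 50, 51.5, 44.9 and 46 CPM in C22 nerve. Every C22 library was above every WT-C22 library, and the log2 fold change was 0.68 (SE 0.08, adjusted p = 3.6e-05 by edgeR), a fold of 1.60. In WT-C3 nerve it measured 30.5, 33.9, 31.4, 35.2 and 36.1 CPM, and in C3 nerve 51.2, 42.5, 40.8, 34.5 and 36 CPM. As for Dusp6, the C3 libraries at 3 to 7 weeks were above the control range and those at 9 and 12 weeks within it. The log2 fold change in C3 was 0.31 (SE 0.11, adjusted p = 0.0545 by edgeR), and it passed the test without the C3 library at 9 weeks (0.35, adjusted p = 0.025) and under 5 of 7 other settings of scaling, test, filter or samples, whose adjusted p ran from 0.0161 to 0.081. Leaving out the C3 library at 12 weeks also brought calls for Dusp6 (0.33, adjusted p = 0.0444) and Etv1 (0.36, adjusted p = 0.0322), with which 5 members were called in C3.

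Etv4 and Etv5 were not called in either model. Etv4 measured 8.61 to 14.3 CPM in WT-C22 and 10.9 to 13.2 CPM in C22 (log2 fold change 0.14, SE 0.15), and 15.2 to 21.6 CPM in WT-C3 and 15.7 to 25.7 CPM in C3 (0.16, SE 0.14). Etv5 measured 22.5 to 23.8 CPM in WT-C22 and 20.3 to 26.2 CPM in C22 (log2 fold change 0.08, SE 0.08), and 21.3 to 27.6 CPM in WT-C3 and 26 to 33.6 CPM in C3 (0.19, SE 0.09). The highest C3 value of both genes came from the library at 9 weeks. Without it the log2 fold change in C3 was 0.11 (SE 0.14) for Etv4 and 0.16 (SE 0.08) for Etv5. One of the 2 Etv5 promoter windows is shown because it held the CIC core most often of the 9 windows (GRCm38.p6, chr16:22438369-22438618, minus strand), with the core, or its reverse complement, in capitals.
Etv5: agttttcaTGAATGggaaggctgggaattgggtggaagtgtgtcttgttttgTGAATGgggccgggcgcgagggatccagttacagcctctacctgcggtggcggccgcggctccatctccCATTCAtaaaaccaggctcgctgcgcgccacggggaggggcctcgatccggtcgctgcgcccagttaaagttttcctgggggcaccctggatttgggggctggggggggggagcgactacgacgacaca
The matches ended 236, 192 and 123 bases before the start. The other Etv5 window and the windows of Etv1, Spry2 and Spred1 held none of the letters searched.

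Scaling bears on these counts. With library size alone in place of TMM, the median of all genes moved by 0.17 on the log2 scale in C22 against WT-C22, and 76% of the genes called were higher against 51.7% with TMM. For C3 against WT-C3 that share was 71.4% against 52.1%, for the difference of the changes 63.1% against 39.4%, and for C3-cJunKO against WT-C3 66.6% against 47.7%. By library size alone the members called were 5 higher and 1 lower in C22 and 4 higher and 0 lower in C3. Of all 13993 genes tested, 5485 were called higher and 1736 lower in C22 by library size alone, and 2584 and 1034 in C3. A higher call was thus common in C22 on that scale. Spry1 lost its call in C3 (-0.36, adjusted p = 0.086). The 3 Sprouty estimates were negative in both models on that scale too.

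The next question was whether the members changed more in C22 than in C3. No member passed the test of the difference between the C22 change and the C3 change in edgeR, where 4.75% of all genes were called higher and 7.31% lower, and 2 members, Etv1 and Spred1, had an unadjusted p under 0.05, as had 24.4% of all genes. Without the C3 library at 9 weeks none passed either. The difference was 0.36 on the log2 scale for Etv1 (SE 0.13, adjusted p = 0.0867) and 0.31 for Spred1 (SE 0.12, adjusted p = 0.0897). For Spred1 the C22 change was the larger at 5 of 5 ages. Over 7 other settings the adjusted p ran from 0.0208 to 0.178 for Etv1 and from 0.0181 to 0.223 for Spred1, with calls by library size alone for both and by DESeq2 for Spred1 (adjusted p = 0.0441). Without the C3 library at 3 weeks both were called (Etv1 0.45, adjusted p = 0.013, and Spred1 0.37, adjusted p = 0.0446). For Dusp4 the difference was 0.49 (SE 0.24, adjusted p = 0.222), and without the WT-C22 library at 12 weeks it was 0.69 (adjusted p = 0.0292). The other members had differences between -0.53 (Dusp5, SE 0.38) and 0.09 (Dusp6, SE 0.13).

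**Figure D3:**
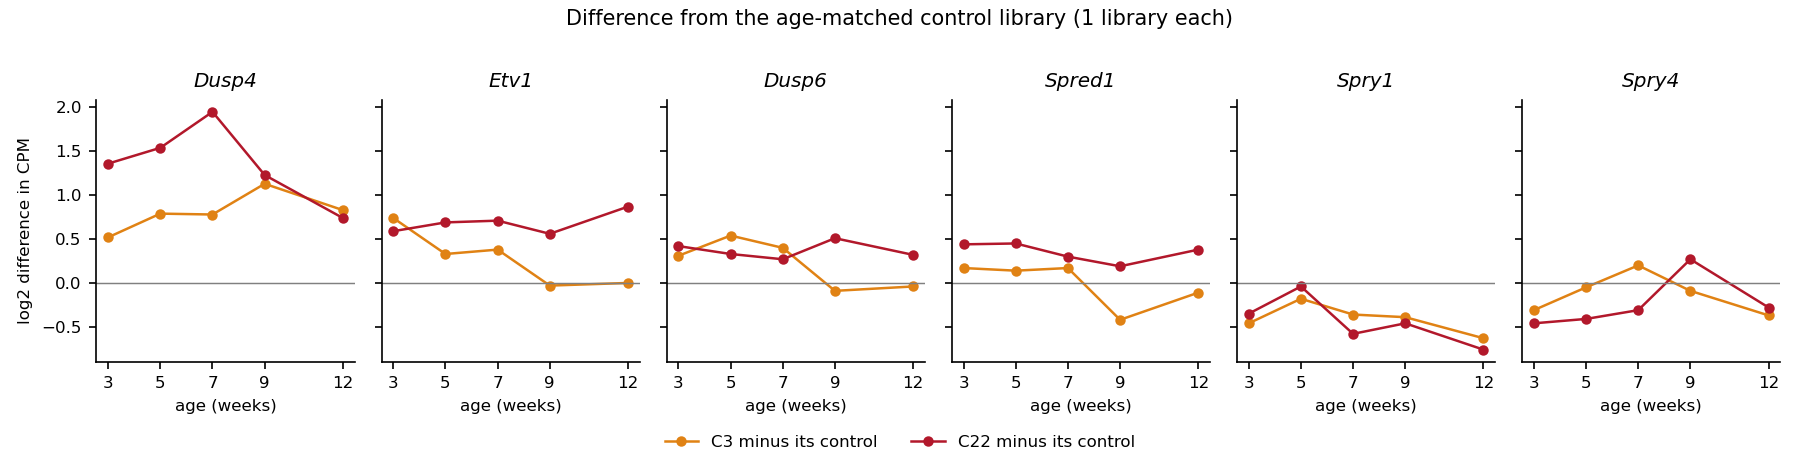
Log2 difference in CPM (vertical axis) between each model library and the control library of the same age (horizontal axis, weeks) for 6 members, 1 library per point and no error bar. Etv1 in C22 stays between 0.56 and 0.87, and Etv1 in C3 goes from 0.74 at 3 weeks to 0.00 at 12 weeks.

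Ages were then compared within each group and between groups. In a spline fit with 3 degrees of freedom, 1 member was called for an effect of age, Dusp4 in WT-C22 (adjusted p = 0.0259 by edgeR), whose level was lowest at 7 weeks and highest at 12 weeks. Over all genes the share called was 0.58% in WT-C3, 1.89% in C3, 2.82% in C3-cJunKO, 2.58% in WT-C22 and 0.52% in C22. At an unadjusted p under 0.05 the members numbered 1, 5, 5, 6 and 0 in the same groups, against 13.2%, 18.2%, 20.4%, 17.9% and 13.8% of all genes. No member was called for an age course that differed between a group and its reference. The share of all genes called was 0.0221% for C3 minus WT-C3, 0.0387% for C22 minus WT-C22 and 0.0663% for C3-cJunKO minus C3, and 3, 2 and 0 members had an unadjusted p under 0.05, against 8.61%, 10.6% and 9.75% of all genes. With a linear slope of age instead, Dusp6 in C3 fell by 0.067 per week on the log2 scale (SE 0.017, adjusted p = 0.0251 by edgeR) and Etv1 in C3 fell by 0.057 per week (SE 0.016, adjusted p = 0.0391). Of all genes 4.66% were called for a linear slope in C3, 2.05% with a falling one. The Dusp6 call was lost without the C3 library at 3, 5 or 12 weeks (adjusted p of 0.154, 0.052 and 0.104), and the Etv1 call without that at 3 or 12 weeks (0.46 and 0.0551). Without the C3 library at 9 weeks both were called, at -0.061 for Dusp6 (adjusted p = 0.0351) and -0.053 for Etv1 (adjusted p = 0.0461). In WT-C3 the slopes were -0.007 for Dusp6 and 0.026 for Etv1, and the difference of the slopes was not called for either gene (Etv1 -0.083, SE 0.022, adjusted p = 0.502). In C22 nerve the slopes of both genes were near 0, at -0.014 for Dusp6 and -0.004 for Etv1. Dusp5 in WT-C22 also fell with a linear slope, by 0.139 per week (adjusted p = 0.0321), where 6.08% of all genes were called for a slope and 2.96% for a falling one. That call was lost without the WT-C22 library at 3, 5, 9 or 12 weeks (adjusted p between 0.0674 and 0.204). Slopes were negative for 8 of the 10 members in C3, 9 in C3-cJunKO and 9 in C22, with Spry1 positive in the first 2 of these groups (0.035 in each), and for 6 of 10 in each control. No member was called for a linear slope in C3-cJunKO, C22 or WT-C3. The share of negative slopes over all genes was not counted.

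The knockout groups address whether c-Jun in Schwann cells alters the members in C3 nerve. No member was called between C3-cJunKO and C3 in edgeR, where 0.222% of all genes were called higher and 0.329% lower, DESeq2 also called none, and 2 members, Dusp4 and Spry1, had an unadjusted p under 0.05, as had 7.83% of all genes. Dusp4 measured 49.9, 38.7, 34.2, 33.7 and 40.5 CPM in C3-cJunKO nerve, above the C3 library of the same age by 0.06 to 0.62 on the log2 scale at 5 of 5 ages. Spry1 measured 29.1, 31.8, 30.7, 32.1 and 37.1 CPM, also higher than C3 at 5 of 5 ages (0.30, SE 0.10, adjusted p = 0.354). The groups overlapped by 1 library each, the lowest C3-cJunKO value of 29.1 CPM lying below the highest C3 value of 29.4 CPM. For Dusp6, Etv1 and Etv5 the estimates were -0.02, -0.08 and 0.00 with SE of 0.11 to 0.12. Libraries of the same age deviated together in these groups, and with age as a block Dusp4 and Spry1 had adjusted p of 0.124 and 0.129. Without the C3 library at 9 weeks the estimates were 0.31 for Dusp4 (adjusted p = 0.476) and 0.33 for Spry1 (adjusted p = 0.326).

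Against WT-C3, C3-cJunKO nerve had 1 member called higher, Dusp4 (1.11, SE 0.13, adjusted p = 0.00012 by edgeR), and 0 lower, where 10.3% of all genes were called higher and 11.3% lower. Its groups did not overlap, with 33.7 CPM the lowest C3-cJunKO value and 22.7 CPM the highest WT-C3 value. Spry1 was not called against WT-C3 (-0.13, SE 0.12, adjusted p = 0.469), and the comparison shares its WT-C3 libraries with that of C3. Dusp6 (0.23, SE 0.09, adjusted p = 0.0869) and Etv1 (0.23, SE 0.09, adjusted p = 0.0859) were not called, though Etv1 passed without the C3-cJunKO library at 12 weeks (0.27, adjusted p = 0.0432).

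The controls of both models were then compared, which carry no transgene and differ in strain, FVB/NRJ against C57BL/6J. In WT-C22 nerve 3 members were lower than in WT-C3, Etv4, Dusp6 and Spred1, and 0 were higher, where 9.99% of all genes were called higher and 11.7% lower. The groups did not overlap for any of the 3, but the share of all genes without overlap was not counted. Etv4 measured 17.6, 20.5, 16, 15.2 and 21.6 CPM in WT-C3 and 13.2, 14.3, 9.88, 8.87 and 8.61 CPM in WT-C22. Its log2 difference was -0.75 (SE 0.16, adjusted p = 0.0061 by edgeR). Dusp6 differed by -0.27 (SE 0.07, adjusted p = 0.0159) and Spred1 by -0.20 (SE 0.06, adjusted p = 0.0373), the last losing its call when any 1 of 8 of the 10 libraries was left out. Spry4 was not called (-0.34, SE 0.16, adjusted p = 0.159), but was without the WT-C22 library at 3 weeks (-0.46, adjusted p = 0.0422). Spry1 was not called either, but with age as a block both were called lower, Spry4 at -0.35 (SE 0.10, adjusted p = 0.0243) and Spry1 at -0.30 (SE 0.07, adjusted p = 0.0103). Dusp6 and Spred1 were thus lower in the control of C22 and higher in C22 than in that control. These comparisons share the WT-C22 libraries, so they are not independent. The C22 levels were 43.9 to 50.1 CPM for Dusp6 and 96.6 to 110 CPM for Spred1, against 40.8 to 48.3 and 90 to 94.6 CPM in WT-C3. Mast cell markers (4 of 4 higher) and adipocyte markers (3 of 5 higher) also differed between the controls, with mast cell sums of 27.6 to 75.6 CPM in WT-C3 and 58 to 244 CPM in WT-C22, and their part in the member differences was not tested.

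The genes around the members in the pathway were read from lists of names. Of 9 other transcriptional outputs of ERK that were tested, 4 were higher and 0 lower in C3, and 6 were higher and 3 lower in C22. Fos, an immediate early transcription factor, rose by 1.60 (SE 0.27, adjusted p = 0.00169 by edgeR) in C3 and by 1.42 (SE 0.14, adjusted p = 1.43e-05) in C22. Ccnd1, which encodes cyclin D1, rose by 1.03 (SE 0.17) in C3 and 1.39 (SE 0.17) in C22. Myc and Phlda1 were called higher in C3 too (0.61 and 0.42). The ephrin receptor genes Epha4 (-0.92, SE 0.09) and Epha2 (-0.81, SE 0.11) were among the outputs that were lower in C22.

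The list of phosphatases that act mainly on JNK and p38 rather than ERK held 3 genes, and all 3 were higher in both models. Of all genes 12.5% were called higher in C3 and 21.9% in C22. Dusp1, another phosphatase, stood in the list of other inhibitors of the pathway. Its mean was 21.6 CPM in WT-C3 and 20.2 CPM in C3, and 28.9 CPM in WT-C22 and 23 CPM in C22. Dusp16 rose by 0.87 (SE 0.11) in C3 and by 1.81 (SE 0.08) in C22, Dusp8 by 0.62 (SE 0.13) and 1.04 (SE 0.12), and Dusp10 by 0.86 (SE 0.28) and 1.03 (SE 0.21), each called by edgeR. Dusp4, which was higher in the same groups, was the sole member phosphatase called in both models. In C3-cJunKO against C3 none of the 3 was called, with estimates of -0.05, -0.06 and 0.06.

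Other inhibitors of the pathway gave 2 higher and 0 lower of 13 tested in C3, and 3 higher and 3 lower in C22, or 5 higher and 1 lower there with library size alone. Erf, an ETS repressor that ERK exports from the nucleus, rose by 0.52 (SE 0.10) in C3 and 0.91 (SE 0.10) in C22, and Cic by 0.57 (SE 0.10) and 0.46 (SE 0.07). In C22 the lower ones included Errfi1 (-0.85, SE 0.22), a feedback inhibitor of the EGF receptor, and Il17rd (-0.60, SE 0.17), an inhibitor of FGF signalling.

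The cascade itself gave 1 higher and 2 lower of 21 in C3 and 2 higher and 7 lower in C22. Mapk3, which encodes ERK1, fell by 0.41 (SE 0.10, adjusted p = 0.0124 by edgeR) in C3 and by 1.07 (SE 0.08, adjusted p = 2.17e-06) in C22. In C22 Braf, a RAF kinase gene, fell by 0.44 (SE 0.07). With library size alone the cascade counts in C22 became 7 higher and 2 lower. Receptors gave 2 higher and 0 lower of 13 in C3, the neuregulin receptor genes Erbb3 (0.71, SE 0.08) and Erbb2 (0.63, SE 0.08). In C22 they gave 3 higher and 5 lower, or 4 and 3 with library size alone, with Erbb3 at 1.29 (SE 0.09) and Ret, a GDNF receptor, at -1.17 (SE 0.24). Ligands gave 2 higher and 3 lower of 10 in C3 and 1 higher and 7 lower in C22. Btc, an EGF receptor ligand, was higher in both (3.16, SE 0.25, and 2.17, SE 0.24), and Nrg1 was higher in C3 (2.92, SE 0.33) but not called in C22 (-0.04, SE 0.21). Fgf1 (folds of 0.70 and 0.125) and Tgfa (folds of 0.646 and 0.163) were lower in both.

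**Figure D4:**
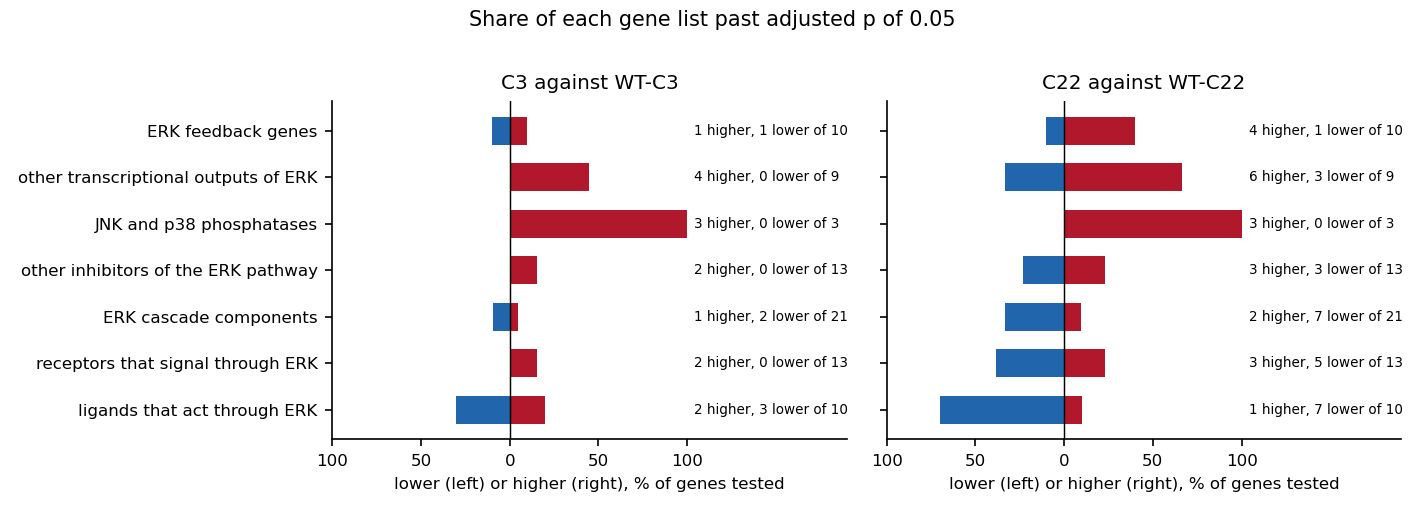
Share of the genes tested in each list (horizontal axis, percent) called higher (right, red) or lower (left, blue) at an adjusted p under 0.05, with the counts beside each bar. The 10 ERK feedback genes have 1 higher and 1 lower in C3 and 4 higher and 1 lower in C22, and the JNK and p38 phosphatases have 3 of 3 higher in both models.

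Markers of nerve cell types moved with the same comparisons. Of 7 repair or immature Schwann cell markers tested, 7 were higher in C3, and 4 were higher and 2 lower in C22, the lower ones being Gfap (mean of 13.6 CPM in WT-C22 and 8.91 in C22) and Shh. Their summed levels were 202 to 270 CPM in WT-C3, 432 to 597 in C3, 306 to 364 in C3-cJunKO, 208 to 290 in WT-C22 and 251 to 370 in C22, where Shh was at 0 in all libraries. Of 8 markers of myelinating Schwann cells, 2 were higher and 2 lower in C3, and 1 was higher and 4 lower in C22, or 4 and 4 with library size alone. Their sums were 57100 to 99500 CPM in WT-C3, 37900 to 56500 in C3, 46000 to 93800 in WT-C22 and 23300 to 35300 in C22. Perineurial cell markers were lower, 4 of 5 tested in C3 and 5 of 5 in C22, or 2 and 4 with library size alone. Their sums were 1250 to 1930 CPM in WT-C3, 1170 to 1670 in C3, 1320 to 2030 in WT-C22 and 906 to 1160 in C22, with Slc22a6 at 0 in all libraries of WT-C3, WT-C22 and C22. Pericyte and smooth muscle markers were lower too, 3 of 6 in C3 and 4 of 6 in C22, with sums of 1110 to 1440 CPM in WT-C3, 620 to 1220 in C3, 936 to 1650 in WT-C22 and 527 to 1100 in C22. Endothelial markers had 1 of 6 lower in C3 and 3 of 6 in C22, or 0 and 3 with library size alone. Their sums were 525 to 605 CPM in WT-C3, 358 to 567 in C3, 485 to 690 in WT-C22 and 334 to 527 in C22. Macrophage markers had 1 of 8 lower in C3, and 1 higher and 2 lower in C22, fibroblast markers had 0 of 7 called in C3 and 1 lower in C22, and no adipocyte, mast cell or blood cell marker was called in either. Skeletal muscle sums varied from 5.56 CPM (C3-cJunKO at 9 weeks) to 8410 CPM (WT-C22 at 5 weeks) and no muscle marker was called in C3 or C22. The part of these cell types in the member changes was not tested. Leaving out WT-C22 at 5 weeks left the Dusp4, Etv1, Dusp6, Spred1 and Spry1 calls in C22 as they were.

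The genes whose level followed a member most closely over the 25 libraries were ranked by Pearson's r of log2 CPM, as a description in which the group differences are shared by all points. For Dusp4 they were Sox4 and Marveld3 (r = 0.93 each) and Tbx2 (0.92). For Etv1 they were Golm2 (0.94), Zfp451 and Igsf11 (0.92 each), and for Dusp6 Phtf1 (0.89), Ckap2l and Ccnd1 (0.88 each). For Spry1 they were Fzd2 (0.92), Wwc1 (0.91) and Fmod (0.90), and for Spry4 Aldh1l2 (0.89), Creb3l1 and Kdelr3 (0.88 each). Spry2 had the weakest leader of the 10 members, Rassf10 (0.81).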

How the data were processed

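RNA of whole sciatic nerve was sequenced from poly(A) libraries made with a directional kit, 1 pool of animals per group and age. Per the labels and the study's methods, the authors checked reads with FastQC 0.11.9, trimmed them with cutadapt 2.10, aligned them with STAR 2.7.5a to GRCm39 with the human PMP22 locus added, removed duplicates with UMI-tools 1.1.1 and counted genes with HTSeq 0.12.4, and deposited raw counts per gene and library. The strand setting of the counting is not given in the sources used here. Of 14 annotated genes that overlap members, the 9 in the count table had at most 12 counts in a library, and 5 are not in it.

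Groups came from the labels, and libraries of different age within a group were treated as replicates, numbered in order of accession. Where pools share nothing but an age, p-values measure the spread between these pools, age included. Group comparisons used edgeR 4.0.16 in R 4.3.3 (TMM, quasi-likelihood test, the libraries of the groups compared) on 13993 genes with log2 CPM (prior count 2) above 1 in at least 7 of 25 libraries. The age fits used a natural spline with 3 degrees of freedom per group over 25 libraries and the 18088 genes that edgeR's filterByExpr kept by group. The SE is the size of the log2 change divided by the root of the F statistic. Both scripts were run on simulated counts with known changes and the same assumed spread for all genes, a check of the code rather than of these data.

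The members and all lists were chosen with earlier results of these data known. All members are named. From each other list the text names at most 4 called genes with the largest changes per comparison (some are not reported here), Jun and PMP22 serve as label checks, and the 3 genes most like a member are those with the highest Pearson's r over 25 libraries. Dusp16, Dusp8 and Dusp10 in C3-cJunKO and Nrg1 in C22 are named outside that rule, to give the same genes in other groups. Dusp1 is named outside it too, as a phosphatase counted in another list. Shared age counted as pairing where the deviations from the group means of same-age libraries correlated above 0.1 at every age, which held for C3-cJunKO against C3 (r = 0.123 to 0.615) and for no other comparison. Sequences are RefSeq promoters of GRCm38.p6, matched by symbol.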

Additional observations from a re-analysis of the deposited data

Results flagged for a closer look

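In 4 of 50 groups of 5 libraries, 1 per member and group, a single library stood apart by Dixon's test on log2 CPM, and chance alone flags about 5% of such groups. Dusp5 in C3 was 1.65 CPM at 12 weeks, below the other 4 C3 libraries. Etv1 in WT-C22 was 25.1 CPM at 12 weeks, below the others. Etv5 in C22 was 20.3 CPM at 9 weeks, below the others. Spry4 in WT-C3 was 33 CPM at 3 weeks, above the others. Each group has 1 library per age, so age and library cannot be told apart here. No member was called for a difference between the C22 change and the C3 change.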

How the results depend on the processing

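The number of members called in C22 against WT-C22 was 5 or 6 under every setting and with any 1 library left out, and in C3-cJunKO against C3 it was 0, also with age as a replicate block. Calls were common in C22, with 3070 of 13993 genes higher and 2869 lower by TMM, and 5485 and 1736 with library size only. Library size only also gave 2584 higher and 1034 lower in C3, and 1179 and 690 for the difference of changes. It gave 2336 and 1169 in C3-cJunKO against WT-C3, and 1196 and 1641 between controls. Counts over all genes under the other settings are not given here. In C3 against WT-C3 the count of 2 became 1 at a threshold of 0.01, 4 with library size only and 3, with Etv1, under DESeq2, the likelihood ratio test, filterByExpr and all 25 libraries in 1 fit. For the C22 change minus the C3 change the count of 0 became 2 with library size only and 1 with DESeq2. In C3-cJunKO against WT-C3 the count of 1 became 4 with library size only. In WT-C22 against WT-C3 the count of 3 became 1 at a threshold of 0.01, 1 with no filter on low counts, 2 with library size only, the likelihood ratio test and all 25 libraries, and 5 (Spry1 and Spry4 added) with age as a replicate block, where same-age pools share an age alone. The age effect in C3 had 2 members with a linear slope instead of 0, and that in WT-C22 had 2 (Dusp4 and Spry4) with a spline of 2 degrees of freedom instead of 1. With 1 library left out the counts ran from 1 to 5 in C3, from 0 to 2 for the difference of changes, from 1 to 2 in C3-cJunKO against WT-C3 and from 2 to 3 between controls. For linear slopes they ran from 0 to 2 in C3, from 0 to 1 in C3-cJunKO (Etv5, without the library at 5 weeks) and from 0 to 1 in WT-C22 (Dusp5 without 7 weeks, Spry4 without 12 weeks). Age courses that differ between groups had 0 in all of these. The cause of these shifts was not tested.

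Estimates that changed sign were all near 0 and not called. They were Spred1 in C3 with the age block (-0.002), Spry1 (0.064) and Etv4 (0.083) in the difference of changes with library size only, Spry4 (0.029) and Etv4 (0.062 with library size only, 0.021 with no filter) in C3-cJunKO against WT-C3, and Dusp4 between controls with no filter (0.002). With 1 library left out, sign changes came with ranges of -0.029 to 0.09 for Spred1 in C3, -0.017 to 0.32 for Dusp5 in C22, -0.13 to 0.061 for Spry1 and -0.12 to 0.091 for Etv4 in the difference of changes. Against C3 the C3-cJunKO ranges were -0.086 to 0.044 for Dusp6, -0.13 to 0.019 for Etv1 and -0.092 to 0.048 for Etv5, and against WT-C3 -0.001 to 0.1 for Spry2, -0.13 to 0.044 for Spry4 and -0.074 to 0.064 for Etv4. Between controls they were -0.23 to 0.11 for Dusp4 and -0.13 to 0.24 for Dusp5.

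All members passed the filter on low values, so the pseudocount alternative for a member outside it was not run. Depth limits Dusp5, with 9 to 165 counts, and all members in the C3 library at 9 weeks.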
